A study of Mus musculus with 12 samples.

Results

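Cebpa, Cebpb, Cebpd and Cebpg, which encode the C/EBP transcription factors alpha, beta, delta and gamma, were followed across 12 mouse lung RNA-seq libraries. These 4 genes, out of 56980 in the expression table, were picked by name, and the choice was made knowing that Cebpb was low in every bleomycin library. The contrasts of bleomycin with Control therefore chose the genes, and their values in those contrasts are given as a description with no test. All 4 genes passed the filter on low counts, as did 17827 genes in all. The lungs came from male C57BL/6 mice aged 6 to 8 weeks, and poly(A) RNA was sequenced. HBG mice received bleomycin, a drug that scars the lung, given once into the trachea at 5 mg/kg, and Huashibaidu Granules, a herbal formula, by mouth at 7 g/kg. Model mice received the same bleomycin dose and distilled water, and Control mice received distilled water and no bleomycin. In the series design, mice of every group were killed at day 28. The series text starts the granules 1 week before bleomycin and ends them at day 28, whereas the sample protocol starts them at day 7 for 14 days, so the schedule behind the HBG libraries is uncertain. Each group had 4 libraries, with totals of 17979863 to 20752001 counts in HBG, 19230806 to 22622406 in Model and 18864759 to 27150787 in Control. The labels do not tie libraries to individual animals, and the p-values below therefore reflect variation among libraries that could be technical.

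C/EBP proteins are basic leucine zipper factors that bind DNA as dimers, with each other or with relatives such as ATF4. C/EBP alpha drives differentiation of fat cells, myeloid cells and type II alveolar cells. C/EBP beta and delta are induced by cytokines such as IL-6, by cyclic AMP and by glucocorticoids, and switch on acute phase genes. C/EBP gamma has no classic activation domain and pairs with ATF4 in the amino acid response.

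The 4 genes lie on 3 chromosomes of GRCm38, as annotated by GENCODE M21. Cebpb is a single exon of 1504 bases at chr2:167688915-167690418 on the plus strand, with a GC content of 67.2%. Cebpa is a single exon of 2636 bases at chr7:35119293-35121928 on the plus strand, with 62.6% GC. Cebpg, at chr7:35046422-35056573 on the minus strand, lies on the same chromosome as Cebpa and carries introns, with 5621 bases in its exons and 43.3% GC in its longest transcript. Cebpd is a single exon of 3746 bases at chr16:15887286-15891031 on the plus strand, with 51.6% GC.

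The 250 bases upstream of the annotated start are shown for the 3 genes in RefSeq's promoter table, build GRCm38.p6, because Cebpb differed most in level between groups and Cebpa and Cebpg are its relatives on another chromosome. Capitals mark TGACG, the half-site of CREB and ATF factors, in Cebpb, CCAAT boxes in Cebpg and the TATA box TATAAA in Cebpa, each read on either strand. Cebpd was matched to no entry. The windows are chr2:167688665-167688914 (plus) for Cebpb, chr7:35056567-35056816 (minus) for Cebpg and chr7:35119043-35119292 (plus) for Cebpa.
Cebpb: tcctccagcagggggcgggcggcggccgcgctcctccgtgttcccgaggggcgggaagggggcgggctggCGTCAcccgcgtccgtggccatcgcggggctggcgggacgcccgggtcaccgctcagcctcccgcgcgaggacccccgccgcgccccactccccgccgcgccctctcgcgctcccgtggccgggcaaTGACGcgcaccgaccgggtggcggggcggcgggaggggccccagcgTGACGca
Cebpg: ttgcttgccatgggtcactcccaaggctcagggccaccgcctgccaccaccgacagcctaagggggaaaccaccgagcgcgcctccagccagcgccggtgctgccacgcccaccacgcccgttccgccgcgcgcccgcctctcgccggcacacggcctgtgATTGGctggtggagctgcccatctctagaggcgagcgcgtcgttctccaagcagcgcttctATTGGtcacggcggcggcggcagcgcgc
Cebpa: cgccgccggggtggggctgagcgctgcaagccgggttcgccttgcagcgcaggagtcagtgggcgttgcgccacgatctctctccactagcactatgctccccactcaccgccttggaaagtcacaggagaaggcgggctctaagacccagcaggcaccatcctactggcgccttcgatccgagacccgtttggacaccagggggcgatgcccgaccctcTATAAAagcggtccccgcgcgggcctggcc
The Cebpb window held 3 TGACG matches, starting at -180, -53 and -7, where -1 is the base before the start. At least 1 such match stood in 17.8% of the 32851 promoter windows of the same length, and 3 or more in 0.688%. It also held 5 GC boxes, GGGCGG, of which the first 2 overlap each other. At least 1 GC box stood in 32.7% of windows, and 3 or more in 8.47%. These shares are over all windows and are not matched for GC content. The Cebpb window was 81.6% GC, a level that 0.746% of windows reached, against a median of 52.4%. Cebpg had CCAAT at -89 and -28, and 10.1% of windows held 2 or more. Cebpa had TATAAA at -30, a sequence found in 12.4% of windows, and the Cebpb and Cebpg windows held none. None of the 3 windows held TTGCNNAA, a C/EBP site found in 9.56% of windows, or TTCNNNGAA, a STAT site found in 7.02%. These are matches of letters in short windows and say nothing of binding.

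Cebpb was the member whose levels stood furthest apart between bleomycin and Control lungs. It had 22.0, 18.9, 11.0 and 18.3 CPM (counts scaled to a common library size) in HBG libraries 1 to 4, 20.2, 13.7, 26.0 and 17.2 CPM in Model libraries, and 89.5, 137, 113 and 64.6 CPM in Control libraries. All 8 bleomycin libraries lay below all 4 Control libraries, and the highest of them, Model 3, was well under the lowest Control, Control 4. The means were 17.6 ± 4.66 CPM in HBG, 19.3 ± 5.22 CPM in Model and 101 ± 31.1 CPM in Control (SD, n = 4 each). The fitted log2 fold change of Cebpb was -2.39 ± 0.28 (SE) for Model against Control, a 5.24-fold lower level, and -2.52 ± 0.28 for HBG against Control, a 5.75-fold lower level. Both contrasts use the same Control libraries. In bulk lung, fewer cells of a type and less RNA per cell cannot be told apart.

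Cebpd, the delta factor, had the same order of group means with a far wider spread. Its levels were 82.2, 79.3, 44.8 and 78.4 CPM in HBG libraries, 91.3, 81.5, 92.3 and 58.2 CPM in Model libraries, and 211, 361, 202.5 and 72.9 CPM in Control libraries. Control 1, 2 and 3 were above all 8 bleomycin libraries, while Control 4 fell inside the bleomycin range. Cebpd averaged 71.2 ± 17.6 CPM in HBG, 80.8 ± 15.8 CPM in Model and 212 ± 118 CPM in Control (SD, n = 4 each). Its fitted log2 fold change was -1.39 ± 0.38 (SE) for Model against Control and -1.57 ± 0.38 for HBG against Control. The value rested on single Control libraries: for Model against Control it was -1.01 without Control 2 and -1.68 without Control 4.

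Cebpa had 71.4, 69.8, 58.8 and 94.2 CPM in HBG libraries, 88.9, 69.7, 75.5 and 58.1 CPM in Model libraries, and 122, 90.6, 103 and 92.0 CPM in Control libraries. Every Model library was below every Control library, and HBG 4 overlapped the lower Controls. The fitted log2 difference of Cebpa was small beside those of Cebpb and Cebpd, at -0.48 ± 0.16 (SE) for Model against Control and -0.47 ± 0.16 for HBG against Control.

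Cebpg had 76.5, 102, 104 and 97.7 CPM in HBG libraries, 84.2, 83.2, 92.3 and 93.5 CPM in Model libraries, and 95.8, 89.2, 93.9 and 81.1 CPM in Control libraries. The 3 groups overlapped throughout, and the fitted log2 differences were -0.03 ± 0.10 (SE) for Model against Control and 0.08 ± 0.10 for HBG against Control.

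**Figure D1:**
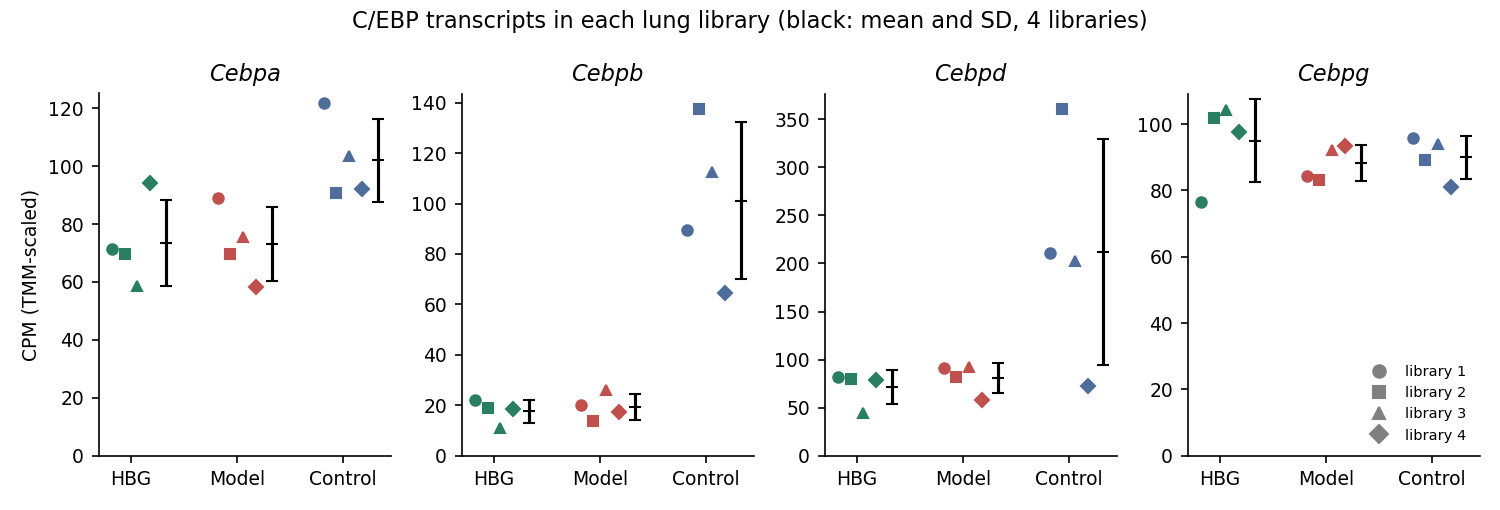
CPM (y axis, scaled by TMM) of the 4 C/EBP genes in each library, with HBG, Model and Control from left to right, a symbol per library and black marks for the group mean and SD. The Cebpb points of HBG and Model lie between 11.0 and 26.0 CPM, below the lowest Control library at 64.6 CPM.

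Set against the whole table, 2 of the 4 genes, Cebpa and Cebpb, had all Model libraries below all Control libraries, where 4.51% of tested genes did. Cebpb alone had all HBG libraries below all Controls, where 3.92% of genes did, and Cebpb alone had all 8 bleomycin libraries below all Controls, where 1.9% did. Since these contrasts chose the genes, nothing is read from the counts.

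The granules were compared with bleomycin alone in a contrast that the choice of genes did not use. None of the 4 genes passed edgeR's quasi-likelihood test for HBG against Model, and neither did any other gene: 0.0% of the 17827 genes were called at an adjusted p of 0.05, with 433 genes at an unadjusted p under 0.05, 6 called by DESeq2 and none by limma-voom. Each of the 4 had an adjusted p of 0.9999 by edgeR with Benjamini-Hochberg adjustment, and over the alternative settings it ranged between 0.573 and 1. The log2 fold change was 0.01 ± 0.16 (SE) for Cebpa, with a 95% interval of -0.35 to 0.37. For Cebpb it was -0.13 ± 0.27, with an interval of -0.72 to 0.45. Cebpd gave -0.18 ± 0.37, with the widest interval of the 4, -1.0 to 0.63. Cebpg gave 0.11 ± 0.10, with an interval of -0.12 to 0.33. The intervals leave room for differences of either sign in all 4 genes. No member had HBG and Model libraries that did not overlap, where 1.13% of tested genes had them apart in either direction.

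**Figure D2:**
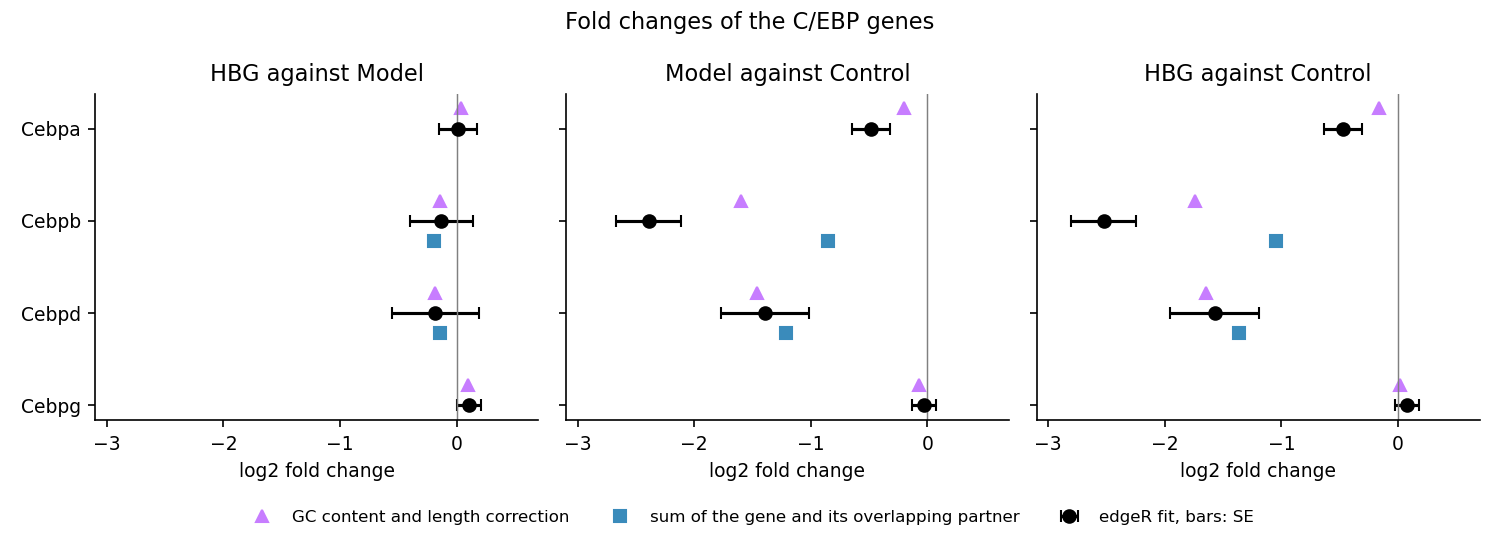
Log2 fold change (x axis) of each C/EBP gene for HBG against Model, Model against Control and HBG against Control, from the edgeR fit, from the fit corrected for GC content and length, and, for Cebpb and Cebpd, the fold of the sum of the gene and its overlapping partner; bars are SE. For Model against Control, Cebpb is at -2.39, or -1.60 with the correction, and its sum with Peds1 is at -0.85, while the HBG against Model points stay near 0.

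The order of the 4 genes within a library differed between bleomycin and Control lungs. This order restates in part the low Cebpb by which the genes were chosen, and nothing further is read from it. Per kilobase of the gene length in the deposited table, which is 2626 bases for Cebpa and 4709 for Cebpg and the exon length above for the other genes, the HBG means were 28.0 ± 5.66 CPM per kb for Cebpa, 20.2 ± 2.68 for Cebpg, 19.0 ± 4.71 for Cebpd and 11.7 ± 3.10 for Cebpb (SD, n = 4). The Model means were 27.8 ± 4.88 CPM per kb for Cebpa, 21.6 ± 4.23 for Cebpd, 18.8 ± 1.13 for Cebpg and 12.8 ± 3.47 for Cebpb. In Control they were 67.2 ± 20.7 CPM per kb for Cebpb, 56.6 ± 31.5 for Cebpd, 38.8 ± 5.50 for Cebpa and 19.1 ± 1.39 for Cebpg. Cebpa was the highest and Cebpb the lowest of the 4 in 8 of 8 bleomycin libraries. In Control, Cebpb was the highest in 3 of 4 libraries and Cebpd in the other, and Cebpg was the lowest in 4 of 4. Neighbours in these orders whose ranges did not overlap were Cebpa over Cebpg in HBG, Cebpg over Cebpb in Model and Cebpa over Cebpg in Control. The other neighbours overlapped in range. Cebpb made up 14.7 ± 2.88% of the summed CPM per kb of the 4 genes in HBG, 15.7 ± 2.95% in Model and 36.9 ± 3.06% in Control.

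**Figure D3:**
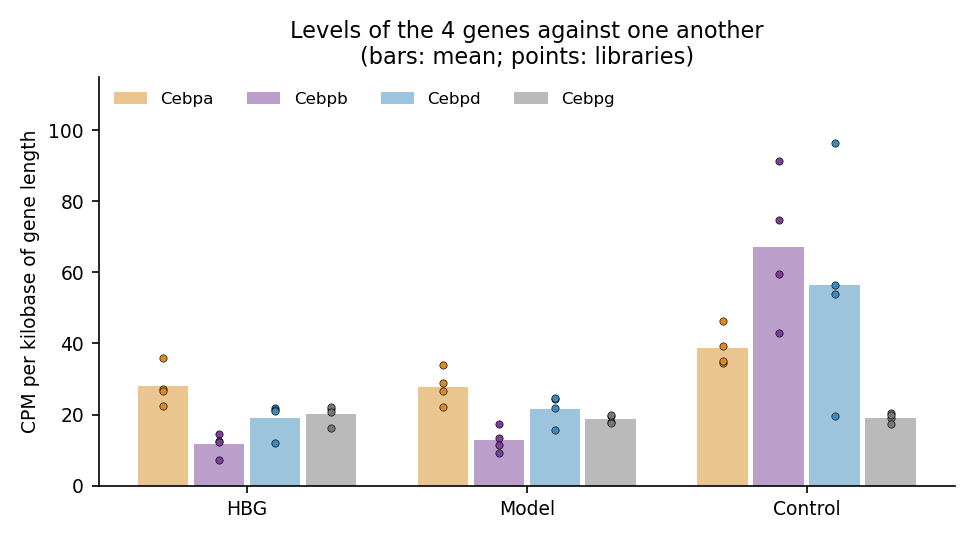
CPM per kilobase of gene length for the 4 C/EBP genes, with bars at the group means and a point per library, in HBG, Model and Control from left to right. Cebpb is lowest of the 4 in both bleomycin groups, at 11.7 and 12.8 CPM per kb, and has the highest mean in Control, at 67.2.

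The counts of Cebpb and Cebpd were not whole numbers in most libraries, and in both cases a gene on the opposite strand covered part of the exon. Peds1 (Tmem189 in GENCODE M21), which encodes the enzyme of plasmalogen synthesis, shares 312 exonic bases with Cebpb, 20.7% of the gene. The Cebpb count was not whole in 11 of 12 libraries, and in 9 of those 11 its sum with Peds1 was whole, to within 0.02. Spidr, a DNA repair gene, shares 562 bases, 15.0% of Cebpd, and the 2 counts summed to a whole number in 12 of 12 libraries. Reads of the shared bases thus appear to have been divided across strands, so each count can hold reads of its partner.

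Peds1 itself had 59.7 ± 1.80 CPM in HBG, 69.3 ± 7.24 CPM in Model and 59.0 ± 6.40 CPM in Control (SD, n = 4 each). The sum of Cebpb and Peds1 was 77.3 ± 4.61 CPM in HBG, 88.5 ± 12.3 CPM in Model and 160 ± 29.6 CPM in Control, and the bleomycin libraries again lay below the Controls, at 71.5 to 82.3 CPM in HBG and 75.4 to 103 CPM in Model, against 121 to 188 CPM in Control. Peds1 makes up most of the sum in bleomycin libraries and was not lower there, so the fold of the sum is smaller than that of Cebpb alone by construction. The log2 fold change of this sum was -0.85 for Model against Control and -1.05 for HBG against Control. The sum of Cebpd and Spidr gave -1.22 and -1.36 for the same contrasts.

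Cebpb was also among the tested genes of highest GC content, and such genes as a class were lower in bleomycin lungs. The 57 tested genes over 65% GC had a median log2 fold change of -0.77 for Model against Control, with 91.2% of them lower and a range from the 10th to the 90th percentile of -2.55 to -0.05. For HBG against Control the same genes had a median of -0.75, with 96.5% lower, and for HBG against Model a median of -0.05. The 591 genes between 60 and 65% GC, the class of Cebpa, had medians of -0.10 for Model and -0.13 for HBG against Control, and the 4439 genes between 50 and 55% GC, the class of Cebpd, had medians of 0.03 and 0.02.

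After fitting GC content and length as smooth terms, the log2 fold change of Cebpb was -1.60 for Model against Control and -1.74 for HBG against Control. Cebpa gave -0.20 and -0.16, and Cebpd, at -1.46 and -1.65, and Cebpg, at -0.07 and 0.02, moved less. Whether GC content takes part in the Cebpb difference was not tested.

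**Figure D4:**
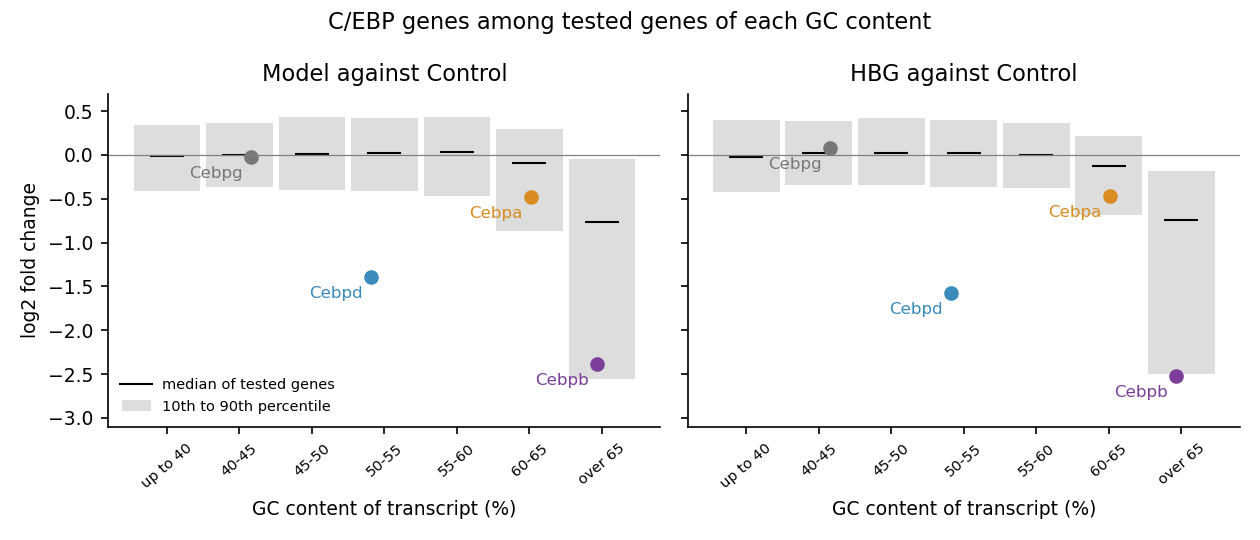
Median log2 fold change (black lines) with the 10th to 90th percentile (grey boxes) of tested genes, in classes of GC content of the longest transcript (x axis, percent), for Model against Control and HBG against Control, with the 4 C/EBP genes as points. The genes over 65% GC have medians of -0.77 and -0.75, and Cebpb lies near the lower end of their boxes, at -2.39 and -2.52.

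Within groups, Cebpb and Cebpd varied together. The correlation of their log2 CPM over the 12 libraries, centred on group means, was r = 0.80, as a description with no test, and the points share library depth and scaling. It was 0.33 for Cebpa with Cebpb and 0.38 for Cebpa with Cebpd, and between -0.08 and 0.05 for Cebpg with the other 3. The tested genes whose centred values were most like each member, out of 12030 with a mean of at least 5 CPM, were Plcd4, Cox6b2, Cry1, Tlcd4 and Retnla for Cebpb, with r of 0.942 to 0.960. For Cebpd they were Clpb, Maff, Ptp4a1, Trib1 and Btg2, at 0.917 to 0.939, of which Maff is a small basic leucine zipper factor and Trib1 an adaptor that promotes degradation of C/EBP alpha. For Cebpa they were Marveld2, Tmed1, Blvrb, Jrk and Rex1bd, at 0.917 to 0.961, and for Cebpg Plekha3, R3hcc1l, Cd200, Mxra7 and Ctla2a, at 0.932 to 0.964. These lists depend on the measure: by rank correlation 3 of the 5 genes of Cebpb, 1 each of Cebpa and Cebpg and none of Cebpd stayed among the first 5. Without centring on group means none stayed for Cebpb or Cebpd, 1 for Cebpa and 2 for Cebpg.

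The genes around the C/EBP factors were described from 12 lists by role, holding 126 measured and 119 tested genes. None of the 119 passed edgeR's test at an adjusted p of 0.05 in any of the 3 contrasts, where 0.0% of all tested genes passed for HBG against Model, 0.348% for Model against Control and 0.151% for HBG against Control. At an unadjusted p under 0.05 there were 4 for HBG against Model, 3.36% of the list genes beside 2.43% of all tested genes. There were 21 for Model against Control, 17.6% beside 11.7%, and 13 for HBG against Control, 10.9% beside 8.25%. DESeq2 called 3 for Model against Control (Fkbp5, Lcn2 and Klf2), 2.52% beside 2.5% of all genes, and 2 for HBG against Control (Atf4 and Klf2), 1.68% beside 1.19%. It called none for HBG against Model, beside 0.0337% of all genes. Limma-voom called 9 for Model against Control (Stat3, Osmr, Fkbp5, Psat1, Lcn2, Il1rn, Slc7a11, Jun and Klf2), 7.56% beside 6.05% of all genes. It called 1 for HBG against Control (Fkbp5), 0.84% beside 0.567%, and none for HBG against Model. Several of these were named after their values were seen, as they fall outside the naming rule.

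Among the other genes listed with the family, Cebpz, listed for its shared symbol, had 44.7 ± 5.85 CPM in HBG, 44.7 ± 4.07 CPM in Model and 45.1 ± 2.0 CPM in Control. Ddit3, the stress-induced inhibitor CHOP, had 17.4 ± 1.25 CPM in HBG, 20.2 ± 3.52 CPM in Model and 18.2 ± 5.04 CPM in Control (SD, n = 4 each). Cebpe, a factor of granulocyte maturation, did not pass the filter on low counts, and its highest library, HBG 3, had 0.661 CPM.

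Of the partners, Atf4, the activator of the amino acid response, had 147 ± 8.41 CPM in HBG, 156 ± 17.0 CPM in Model and 188.5 ± 13.1 CPM in Control. All HBG libraries were below all Control libraries, at 137 to 157 against 170.0 to 201 CPM, an order that 3.92% of tested genes had. Jun, an AP-1 subunit, had 244 ± 42.4 CPM in HBG, 231 ± 73.0 CPM in Model and 380 ± 164 CPM in Control, with Control 2 the highest at 622.5 CPM. The 8 partners had a median log2 fold change of 0.06 for HBG against Model, -0.25 for Model against Control and -0.27 for HBG against Control. Over all tested genes the median was 0.00 for HBG against Model and 0.01 for each contrast with Control, which also stands beside the list medians below.

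Upstream of the family, Stat3, which relays IL-6 signals, had 216 ± 12.1 CPM in HBG, 239 ± 18.5 CPM in Model and 196 ± 15.7 CPM in Control, and all Model libraries were above all Controls (log2 fold change 0.29, edgeR adjusted p = 0.258). The share of all tested genes with Model above Control in this way was not counted, so nothing is read from that order. Il6 was scarce, at 0.833 ± 0.352 CPM in HBG, 1.35 ± 0.82 CPM in Model and 2.14 ± 3.06 CPM in Control, with 6.70 CPM in Control 2. Nr3c1, the glucocorticoid receptor, had 180.5 ± 42.9 CPM in HBG, 175 ± 23.8 CPM in Model and 163 ± 13.5 CPM in Control. Trib1 had 53.6 ± 11.3 CPM in HBG, 62.3 ± 9.70 CPM in Model and 67.2 ± 29.9 CPM in Control. The 13 receptors and signal transducers had a median log2 fold change of 0.13 for Model against Control, with 10 fitted higher and none past the test.

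The immediate early genes, which respond within minutes to stimuli that also induce Cebpb and Cebpd, held 20 tested genes. Of these, 18 had a fitted value below 0 for Model against Control and 19 for HBG against Control, with medians of -0.79 and -0.90 and none past the test. The median for HBG against Model was -0.00, with 10 fitted each way. These medians and directions include Control 2, which stood apart in this list, and no list median without it is given. Fos, a partner of Jun in AP-1, had 1098 CPM in Control 2, against 62.9 to 199 CPM in the other Controls. It had 27.3 to 332 CPM in HBG and 53.8 to 142 CPM in Model. Control 2 was also the highest library for Cebpb and Cebpd.

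Klf2, a factor of quiescent endothelium in the same list, had 125 ± 31.8 CPM in HBG, 107 ± 18.4 CPM in Model and 244 ± 68.6 CPM in Control. All Model libraries were below all Controls (log2 fold change -1.19, edgeR adjusted p = 0.0791), an order that 4.51% of tested genes had. Without Control 4 the edgeR adjusted p of Klf2 was 0.0273, the single list gene called at that setting.

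The mean centred log2 CPM of the immediate early list was 0.31, -0.29, -0.51 and -0.54 in HBG libraries 1 to 4, -0.18, -0.11, 0.07 and -0.51 in Model, and -0.07, 1.89, 0.34 and -0.39 in Control. Control 2 stood above every other library. Control 1 and Control 4 lay within the Model range, and Control 3 lay just above all bleomycin libraries. Over the 12 libraries, centred on group means, this score had r = 0.69 with Cebpb, 0.78 with Cebpd, -0.13 with Cebpa and -0.23 with Cebpg, as a description. Control 2 was the highest and Control 4 the lowest Control in this score, in Cebpb and in Cebpd. The r values of Cebpb and Cebpd rest largely on those libraries. The part of immediate early gene levels in the Cebpb and Cebpd differences was not tested.

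Markers of T and NK cells ran the other way. The score of 6 such markers had a centred r of -0.83 with Cebpb and -0.57 with Cebpd over the 12 libraries. For Cebpb the centred r was also -0.76 with endothelial, -0.70 with erythrocyte and -0.60 with neutrophil markers, and 0.63 with ciliated cell markers. Among the 14 marker lists the T and NK cell score was not the strongest correlate of Cebpb, as a list not printed here had a more negative r. The pattern was therefore not particular to T and NK cells. The lowest Cebpb library of each group, HBG 3, Model 2 and Control 4, was the highest of its group for the T and NK cell score. The summed CPM of these markers was 132 in HBG 3, against 35.3 to 76.7 in the other HBG libraries, 128 in Model 2, against 16.9 to 33.8 in the other Model libraries, and 56.5 in Control 4, against 16.4 to 49.4 in the other Controls. None of the 6 was at 0 throughout a group. The same 3 libraries were also the highest of their groups for the endothelial score. Without these 3 libraries the log2 fold change of Cebpb was -2.44 for Model against Control and -2.53 for HBG against Control. The part of these cells in the variation of Cebpb within groups was not tested.

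**Figure D5:**
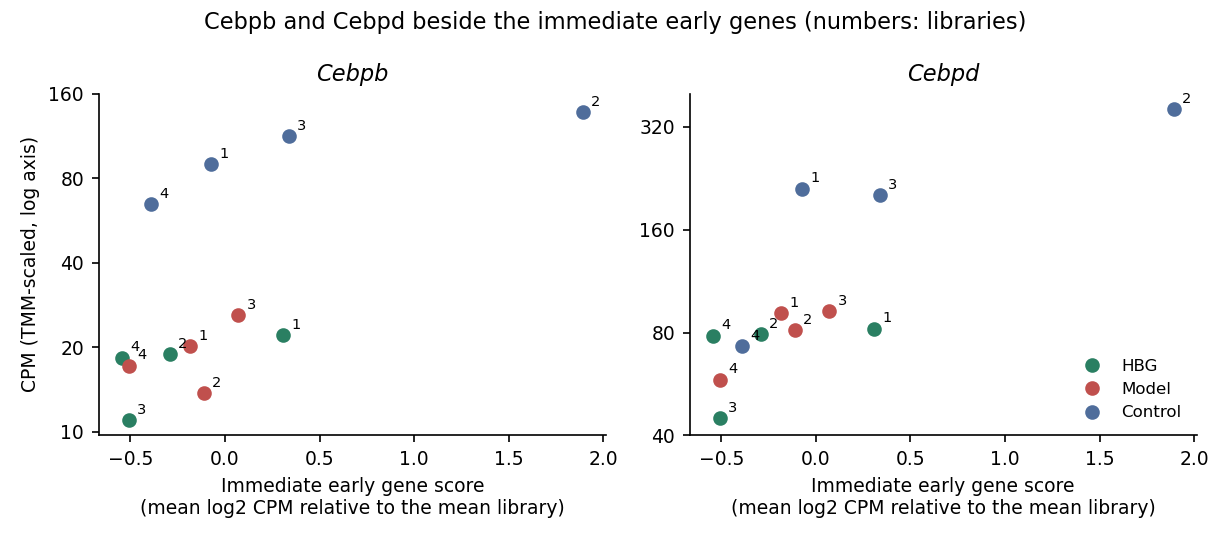
CPM of Cebpb and Cebpd (y axis, log scale) against the mean centred log2 CPM of 20 immediate early genes (x axis), a numbered point per library, for HBG, Model and Control. Control 2 lies far to the right at 1.89, the Cebpb points of all 4 Controls lie above the bleomycin libraries, and the Cebpd point of Control 4 lies among them.

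Among genes that C/EBP factors are known to activate, the acute phase and innate list had 13 of 18 tested genes fitted higher for Model against Control (median log2 fold change 0.39) and 13 of 18 fitted lower for HBG against Model (median -0.44), with none past the test. The same Model libraries enter both contrasts with opposite sign, so the opposite directions are not independent and no reversal is read from them. Lcn2, an iron-binding defence protein, had 212 ± 93.4 CPM in HBG, 273 ± 168 CPM in Model and 90.9 ± 26.4 CPM in Control (Model against Control, edgeR adjusted p = 0.221). The myeloid list had a median of 0.50 for Model against Control, with 6 of 8 tested genes fitted higher. The summed CPM of neutrophil markers ranged over 34.8 to 340 in HBG, 37.8 to 662 in Model and 50.8 to 188 in Control, and that of monocyte-derived macrophage markers over 853 to 2201, 792 to 3791 and 794 to 872 in the same groups. The part of these cells in the list values was not tested.

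The lung epithelial list, which holds surfactant and secretory genes under C/EBP alpha, had 8 of 12 genes fitted higher for Model against Control, with a median of 0.13. Sftpc, the type II cell surfactant protein, had 12499.8 ± 3360 CPM in HBG, 14696 ± 1914 CPM in Model and 15856 ± 2468 CPM in Control. Scgb1a1, the club cell secretory protein, had 29249 ± 14111 CPM in HBG, 26446 ± 7023 CPM in Model and 48159 ± 8639.7 CPM in Control. The score of this list had r = 0.81 with Cebpa over the 12 libraries, centred on group means, as a description. The summed CPM of type II cell markers ranged over 14516 to 24216 in HBG, 20565 to 27734 in Model and 19762 to 27976 in Control, and no marker was at 0, which shows lung tissue in every group. Club cell marker sums were 21693 to 58266 in HBG, 21889 to 36760.3 in Model and 52095 to 70105 in Control, and their part in the Cebpa values was not tested.

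In the amino acid and stress response list, the setting of C/EBP gamma with ATF4, 11 of 14 genes were fitted higher for Model against Control (median 0.22) and 13 of 14 lower for HBG against Model (median -0.10), again with none past the test. Here too the contrasts share the Model libraries with opposite sign, and no reversal is read from the directions. The score of this list had a centred r of -0.37 with Cebpg and 0.70 with Cebpd. In the glucocorticoid list, Fkbp5, a chaperone of the receptor, had 35.9 ± 10.7 CPM in HBG, 44.5 ± 11.1 CPM in Model and 23.1 ± 1.43 CPM in Control, with all Model libraries above all Controls (log2 fold change 0.95, edgeR adjusted p = 0.116). As for Stat3, the share of all tested genes in that order was not counted. The glucocorticoid list's score also had a centred r of 0.70 with Cebpd. It was lowest in HBG 3, at -0.66, and Control 4, at -0.59, the lowest libraries of their groups for Cebpd, but in Model it was lowest in Model 1, at -0.22, and stood at 0.26 in Model 4, the lowest Model library for Cebpd. The adipocyte list had 9 of 11 genes fitted higher for HBG against Model, with a median of 0.40 and none past the test, while fat cell marker sums ranged over 32.7 to 407 CPM in HBG, 14.9 to 252 CPM in Model and 58.4 to 226 CPM in Control.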

How the data were processed

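The table deposited by the authors holds an estimated count per gene, not normalized, made by steps that no file header records, with decimals in 10.0 to 15.1% of genes per library, rounded here to whole numbers for the models. The submitters' processing notes name aligners (HISAT2 and STAR 2.7.9a), counters (HTSeq and featureCounts 2.0.1), trimmers (Trimmomatic 0.39, fastp and cutadapt), FastQC 0.11.9, DESeq2 1.34.0 and the builds mm10 and GRCm39, with no order. Which of these made the counts, and the strand setting, are not given in the sources used here, although the libraries were stranded per the labels' protocols. Of the 56980 gene IDs, 52073 (91.4%) were found in GENCODE M21, which gave positions and GC content (known for 98.1% of tested genes). Promoters came from RefSeq.

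Counts were scaled by TMM, filtered with filterByExpr and fitted in edgeR 4.0.16 (R 4.3.3) with 1 mean per group over all 12 libraries, using the quasi-likelihood F-test with Benjamini-Hochberg adjustment over 17827 genes and a threshold of 0.05. The code was tested on simulated data. DESeq2 1.42.0, limma-voom (limma 3.58.1), other filters and scaling, a replicate block, a correction for GC content and length (mgcv 1.9.3) and leaving out single libraries were alternatives. CPM values use TMM library sizes, and log2 CPM a prior count of 2. A list score is the mean over its tested genes of log2 CPM minus the gene's own mean. Promoter motifs were searched on both strands. Named genes were the 4 members, the 3 most abundant genes of each list, genes past the threshold, and Cebpe, Cebpz, Ddit3, Atf4, Il6, Stat3, Nr3c1 and Trib1, of which those with most bearing are printed; for likeness, the 5 genes of highest correlation, leaving out predicted genes, pseudogenes and receptor segments. The members and lists were chosen with earlier results of these data known, and 1 marker list is not reported here.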

Additional observations from a re-analysis of the deposited data

Results flagged for a closer look

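In 14 of 126 groups of 4 libraries checked, 1 library stood far from the other 3 by Dixon's test, and chance flags about 1 in 20 groups. Among the C/EBP genes it was HBG 3 for Cebpd, at 44.8 CPM, with the other HBG libraries at 78.4 to 82.2 CPM. Cebpe had 0.661 CPM in HBG 3, against at most 0.0932 CPM in the other HBG libraries, and Ddit3 had 25.4 CPM in Model 3, against 17.7 to 19.0 CPM in the other Model libraries.

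Control 2 was flagged for Fos (1098 CPM, other Controls 62.9 to 199 CPM), Lif (77.7 CPM, others 6.51 to 14.3 CPM) and Il6 (6.70 CPM, others 0.269 to 1.05 CPM), and it also held the highest Cebpb and Cebpd. HBG 1 was flagged for Fos (332 CPM, other HBG libraries 27.3 to 74.4 CPM), Trib2 (93.8 CPM, others 127 to 131 CPM) and Ltf (1990 CPM, others 53.2 to 327 CPM). Model 2 was flagged for Il6st (462 CPM, other Model libraries 373 to 381 CPM) and Csf3r (155.5 CPM, others 13.1 to 36.2 CPM). Single flags fell on Control 1 for Il6st (387 CPM, others 358 to 362 CPM), Control 3 for Scgb1a1 (61041 CPM, others 43189.5 to 45204 CPM) and Model 1 for Lpl (410.5 CPM, others 246 to 271 CPM). No cause was tested.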

How the results depend on the processing

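The genes called numbered 0 for HBG against Model, 62 for Model against Control and 27 for HBG against Control, and 6, 444 and 212 with DESeq2. With limma-voom they were 1079 for Model against Control and 101 for HBG against Control. The replicate numbers did not pair the libraries: correlations of same-numbered deviations ran between -0.357 and 0.481. With a replicate block 25 genes were called for Model against Control, 17 for HBG against Control and 0 for HBG against Model. Under the block Cebpb was at -2.37 and Cebpd at -1.27 for Model against Control, and at -2.50 and -1.43 for HBG against Control. Of the list genes, DESeq2 called 3 and 2, and limma-voom 9 and 1. Leaving out single libraries gave 23 to 67 called genes for Model against Control, 16 to 25 for HBG against Control, and 0 for HBG against Model; list genes called were 0 to 1 for Model against Control.

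Log2 fold changes for Model against Control ran, leaving out single libraries, over -0.59 to -0.39 for Cebpa, -2.57 to -2.22 for Cebpb, -1.68 to -1.01 for Cebpd and -0.08 to 0.00 for Cebpg. For HBG against Control they ran over -0.61 to -0.38 for Cebpa, -2.70 to -2.35 for Cebpb, -1.87 to -1.20 for Cebpd and 0.02 to 0.17 for Cebpg. For HBG against Model they ran over -0.13 to 0.12 for Cebpa, -0.27 to 0.045 for Cebpb, -0.31 to -0.02 for Cebpd and 0.06 to 0.20 for Cebpg, with the sign of Cebpa turned without HBG 4 (-0.13), Model 2 (-0.01) or Model 4 (-0.09), and that of Cebpb without HBG 3 (0.03) or Model 3 (0.045). The GC content and length correction gave -0.20 and -0.16 for Cebpa and -1.60 and -1.74 for Cebpb for Model and HBG against Control. The sum of Cebpb and Peds1, chosen after seeing the data, gave -0.85 and -1.05, a fold of both genes together. HBG 3, Model 2 and Control 4 were the libraries highest of their groups in T and NK cell markers and in endothelial markers. Without them, a choice also made after seeing the data, Cebpb was at -2.44 and -2.53 and Cebpd at -1.70 and -1.70. The causes of these shifts were not tested. Fits that leave out libraries also have fewer degrees of freedom. Depth limits Cebpe and Il6, which rest on few counts, and intervals cover the spread between these libraries.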
